A study of Mus musculus with 24 samples.

Results

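6 genes whose liver RNA was strongly higher when the clock gene Arntl (Bmal1) was deleted in hepatocytes are described here: Grk5, Loxl4, Slc34a2, Moxd1, Ntrk2 and Chrm3. They are 6 of 35304 genes in the count table and 6 of the 17275 with enough counts to be tested. They were chosen by their large measured difference between genotypes (HepKO against HepWT CPM) in these same libraries, so that difference is given as a description, with a value and a standard error and no test. They are not all such genes: 39 tested genes (0.226%) were at least 8-fold higher over the day.

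Liver was taken from C57BL/6 mice aged 8 to 12 weeks that were fed only at night. Both groups carried the floxed gene on both copies (Bmal1_fl/fl). HepKO mice also carried 1 copy of Alb::Cre (Alb::Cre_+/0), a Cre recombinase driven by the albumin promoter, and HepWT mice carried none (Alb::Cre_0/0). Each genotype was sampled at zeitgeber time (ZT, counted in hours from lights on) 2, 6, 10, 14, 18 and 22. Every pairing of genotype and time, 12 in all, has 2 libraries, so there are 24 libraries. The HepWT group therefore controls for the floxed gene but not for the Cre transgene. The labels do not say whether the 2 libraries of a group came from different animals. The p-values therefore reflect the spread among these libraries alone, which may be technical.

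BMAL1 pairs with CLOCK or NPAS2 and switches on genes through E-box sequences, among them its own repressors, and this loop gives many liver genes a daily wave. The albumin promoter is used to drive Cre in hepatocytes. Whether the other cells of the liver kept the gene was not checked here. The 6 genes have unlike jobs. Grk5 encodes a kinase that phosphorylates activated G protein-coupled receptors. Chrm3 encodes the M3 muscarinic acetylcholine receptor, which signals through Gq. Ntrk2 encodes TrkB, the receptor tyrosine kinase for BDNF. Slc34a2 encodes a sodium-dependent phosphate transporter best known in lung and intestine. Loxl4 encodes a copper enzyme of the lysyl oxidase family, which cross-links collagen and elastin. Moxd1 encodes a protein related to dopamine beta-hydroxylase, another copper enzyme.

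Total counts ran from 23583035 to 30677807 in 19 libraries and from 12997689 to 16910415 in 5 HepKO replicate 2 libraries (all times but ZT2), called the libraries of low depth below. Arntl itself was at 1.27 to 46.0 CPM, the count scaled to library size, in HepWT and 10.3 to 17.7 CPM in HepKO. The counts are per gene and do not show the floxed exons, so they do not check the deletion by themselves, but the wide daily range of HepWT was absent from HepKO. Hepatocyte markers were present at high level in all libraries, and 8 of 9 did not pass the test of the genotype difference, while Alb was 2.56-fold lower in HepKO (log2 -1.36 ± 0.09, SE). All 10 Kupffer cell and macrophage markers were lower in HepKO, with a summed level of 285 to 518 CPM in HepWT and 222 to 465 CPM in HepKO. In whole liver, a change in the number of cells of a type and a change in RNA per cell cannot be told apart.

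The genes lie on 4 chromosomes of GRCm38 (GENCODE M21 annotation), and all are protein-coding. Grk5 is at chr19:60889749-61095968 on the plus strand and Loxl4 at chr19:42593982-42612813 on the minus strand. Slc34a2 is at chr5:53038081-53071664 and Moxd1 at chr10:24223517-24302790, both on the plus strand. Ntrk2, at chr13:58806569-59133970 on the plus strand, shares its chromosome with Chrm3, at chr13:9875486-10360847 on the minus strand. None of the 6 shares exon bases with another annotated gene.

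The sequence just upstream of the transcription start is shown for the 3 genes with a daily wave in HepWT and for Moxd1, the gene with the largest difference between genotypes. Each run is the 250 bases before the RefSeq start in GRCm38.p6, 5′ to 3′ on the strand of the gene, with CpG dinucleotides in capitals. The windows are chr19:60889499-60889748 for Grk5, chr19:42612807-42613056 for Loxl4, chr5:53049103-53049352 for Slc34a2 and chr10:24223267-24223516 for Moxd1. For Slc34a2 the RefSeq start lies 11272 bases inside the 5′ end of the gene in GENCODE.
Grk5: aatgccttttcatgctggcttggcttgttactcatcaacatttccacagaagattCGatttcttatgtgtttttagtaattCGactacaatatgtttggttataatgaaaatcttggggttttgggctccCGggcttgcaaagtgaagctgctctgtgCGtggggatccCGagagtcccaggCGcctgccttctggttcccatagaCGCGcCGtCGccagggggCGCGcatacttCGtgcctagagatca
Loxl4: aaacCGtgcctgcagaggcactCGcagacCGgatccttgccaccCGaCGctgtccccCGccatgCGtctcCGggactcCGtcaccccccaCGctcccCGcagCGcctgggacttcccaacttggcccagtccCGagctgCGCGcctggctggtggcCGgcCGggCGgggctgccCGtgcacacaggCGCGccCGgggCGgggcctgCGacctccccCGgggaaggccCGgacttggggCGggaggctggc
Slc34a2: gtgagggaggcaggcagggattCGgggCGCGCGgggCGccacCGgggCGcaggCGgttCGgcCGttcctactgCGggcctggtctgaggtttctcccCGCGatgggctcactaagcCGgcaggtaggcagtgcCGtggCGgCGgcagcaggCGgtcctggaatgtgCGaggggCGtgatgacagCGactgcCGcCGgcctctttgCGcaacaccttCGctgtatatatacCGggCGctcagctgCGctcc
Moxd1: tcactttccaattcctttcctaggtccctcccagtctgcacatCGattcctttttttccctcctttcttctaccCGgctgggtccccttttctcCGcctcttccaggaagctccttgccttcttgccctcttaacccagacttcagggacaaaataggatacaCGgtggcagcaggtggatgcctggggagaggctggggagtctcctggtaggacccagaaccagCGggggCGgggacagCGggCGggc

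CpG dinucleotides numbered 13 upstream of Grk5, 27 upstream of Loxl4, 28 upstream of Slc34a2 and 8 upstream of Moxd1, against a median of 6 over 32851 windows of the same length. The corresponding counts were 19 for Ntrk2 and 10 for Chrm3. The same windows extended 50 bases past the start were searched on both strands for 7 motifs. The E-box CACGTG, bound by CLOCK and BMAL1, is present in 7.15% of all such windows and the related CACGTT in 4.68%. Of the sequences bound by REV-ERB and ROR receptors, TAGGTCA is present in 2.61% and GGGTCA, which shares its last bases, in 13.7%. Of those bound by PAR bZIP factors and Nfil3, TTATGTAA is present in 0.938% and TTACGTAA in 0.119%. The CREB site TGACGTCA is present in 1.79%. None of the 7 matched in any of the 6 windows. This says only that these letters are not in these windows.

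In every one of the 12 HepKO libraries each of the 6 genes was above its highest HepWT library, and so without overlap at each time. Over all tested genes the first held for 164 (0.949%) and the second for 455 (2.63%), and since the genes were chosen for this difference the count is no result. The lowest HepKO library stood 24.2-fold above the highest HepWT library for Moxd1, 2.25-fold for Grk5, 1.99-fold for Ntrk2, 1.77-fold for Chrm3, 1.62-fold for Loxl4 and 1.16-fold for Slc34a2. The narrow gap of Slc34a2 comes from setting its HepWT peak against its HepKO trough, at another time of day.

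Per kilobase of exon, the mean levels in HepKO were 44.3 ± 38.2 CPM per kb for Moxd1, 13.5 ± 4.52 for Loxl4, 12.9 ± 3.72 for Grk5, 9.21 ± 3.62 for Slc34a2, 1.43 ± 0.637 for Ntrk2 and 1.10 ± 0.407 for Chrm3 (SD over 12 libraries, day included). Of the neighbours in this order, Loxl4 and Grk5, and Ntrk2 and Chrm3, lay within the SD of both genes. Moxd1 and Loxl4 lay within the wide SD of Moxd1 but beyond that of Loxl4. Grk5 and Slc34a2 were apart by about the SD of either, and Slc34a2 and Ntrk2 by more than the SD of both. In HepWT the order of the means was another: Loxl4 1.71 ± 1.47, Grk5 1.54 ± 0.9, Slc34a2 1.15 ± 1.28, Chrm3 0.0982 ± 0.0695, Moxd1 0.0838 ± 0.0912 and Ntrk2 0.0394 ± 0.037 CPM per kb. Chrm3 and Moxd1 lay within the SD of both genes, and Moxd1 and Ntrk2 within that of Moxd1. By its mean alone, Moxd1 went from the fifth place to the first, and its place in HepWT among Chrm3, Moxd1 and Ntrk2 is not settled.

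**Figure D1:**
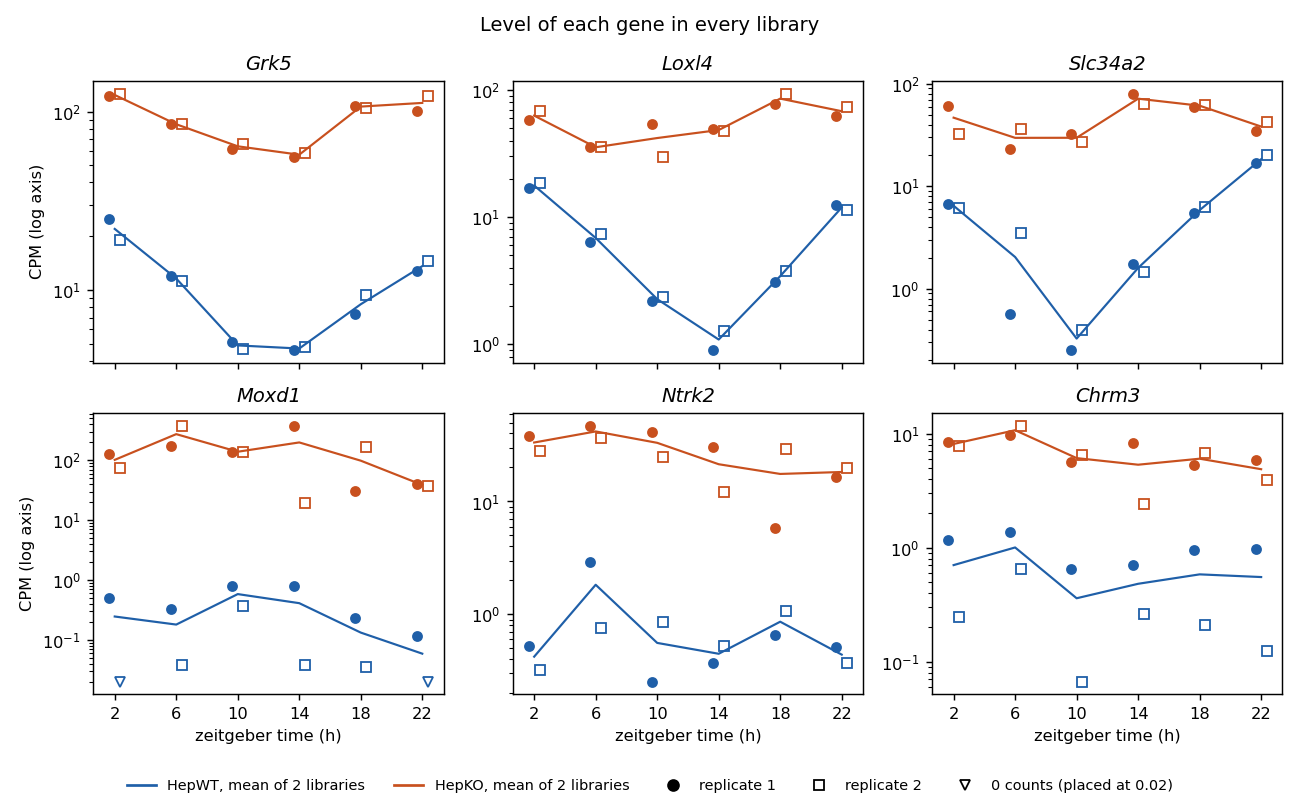
Level of each gene (CPM, log axis) in every library against zeitgeber time (h), with HepWT in blue and HepKO in orange; lines join the means of the 2 libraries, filled circles are replicate 1, open squares replicate 2 and triangles libraries with 0 counts, placed at 0.02. Grk5, Loxl4 and Slc34a2 dip in HepWT at ZT10 and ZT14, with every HepKO library above all HepWT libraries. Grk5 is lowest at these times in HepKO too. Moxd1 and Chrm3 have HepWT replicate 1 above replicate 2 at all 6 times.

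The genes fell into 2 sets of 3 by their course over the day in HepWT, a division made after the values were seen. Grk5, Loxl4 and Slc34a2 changed over the day in HepWT, and their difference between genotypes changed with it. For Moxd1, Ntrk2 and Chrm3 no change over the day was called in either genotype. Among all tested genes 25% changed over the day in HepWT, 11.7% in HepKO, and 1.12% (193 genes) had a difference between genotypes that varied with time (edgeR quasi-likelihood test, adjusted p below 0.05).

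Grk5 was highest in HepWT at ZT2 (24.8 and 19.1 CPM in the 2 libraries) and fell through ZT6 (11.9 and 11.3 CPM) to ZT10 (5.11 and 4.66 CPM) and ZT14 (4.61 and 4.77 CPM), then stood at 7.28 and 9.34 CPM at ZT18 and 12.7 and 14.5 CPM at ZT22. In HepKO it stood at 122 and 126 CPM at ZT2, 85.0 and 84.7 CPM at ZT6, 61.8 and 65.8 CPM at ZT10, 55.8 and 58.7 CPM at ZT14, 108 and 105 CPM at ZT18 and 101 and 122 CPM at ZT22. The kinase transcript was thus lowest at ZT14 and highest at ZT2 in both genotypes, on levels that did not overlap at any time. Its mean was 10.8 ± 6.35 CPM in HepWT and 91.3 ± 26.2 CPM in HepKO (SD, n = 12), and the fitted difference over the day was 3.23 ± 0.06 (log2, SE), or 9.40-fold. For every gene, the fitted difference over the day is the mean of the log2 differences at the 6 times. Its fold is therefore not the ratio of the mean CPM, which was 8.43 for Grk5. The difference was smallest at ZT2 (2.49 ± 0.13, 5.63-fold) and largest at ZT10 (3.71 ± 0.14, 13.1-fold).

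Both courses of Grk5 passed the test of change over the day, with adjusted p = 2.19e-08 in HepWT and 9.50e-05 in HepKO by edgeR. The level without hepatocyte Arntl was therefore raised but not flat, with a peak 2.16 times the trough in HepKO against 4.68 times in HepWT. The interaction of genotype and time had an adjusted p of 0.00217 by edgeR, which became 0.143 without the 5 libraries of low depth.

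Loxl4 followed the same order of times in HepWT, with a deeper trough. It stood at 17.0 and 18.4 CPM at ZT2, 6.40 and 7.32 CPM at ZT6, 2.17 and 2.36 CPM at ZT10, 0.906 and 1.28 CPM at ZT14, 3.10 and 3.77 CPM at ZT18 and 12.4 and 11.4 CPM at ZT22. In HepKO it stood at 57.7 and 67.9 CPM at ZT2, 35.5 and 35.3 CPM at ZT6, 53.8 and 29.9 CPM at ZT10, 49.6 and 47.1 CPM at ZT14, 77.7 and 93.1 CPM at ZT18 and 62.3 and 73.7 CPM at ZT22. The mean of the 2 libraries peaked 16.2-fold above the trough in HepWT and 2.41-fold in HepKO, and the HepKO peak fell at ZT18 where HepWT was still low. The fitted difference over the day was 3.50 ± 0.09 (log2, SE; 11.3-fold). The mean was 7.22 ± 6.18 CPM in HepWT and 57.0 ± 19.0 CPM in HepKO (SD, n = 12), a ratio of 7.90. At ZT2 the difference was 3.54-fold (1.82 ± 0.19) and at ZT14 it was 43.9-fold (5.46 ± 0.26).

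Change over the day in Loxl4 passed in HepWT (edgeR adjusted p = 3.13e-08) and in HepKO (edgeR adjusted p = 0.00198, and 0.0749 without the 5 libraries of low depth). Its interaction of genotype and time had an adjusted p of 5.56e-06 by edgeR, and 0.00839 without those libraries, the only one of the 6 genes still called then.

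Of the 3 genes with a wave in HepWT, Slc34a2 had the lowest trough there, at 0.254 and 0.399 CPM at ZT10. From there the phosphate transporter stood at 1.73 and 1.46 CPM at ZT14, 5.48 and 6.23 CPM at ZT18, 16.7 and 20.0 CPM at ZT22 and 6.70 and 6.21 CPM at ZT2. At ZT6 its 2 HepWT libraries were 6.13-fold apart, at 0.572 and 3.51 CPM. In HepKO it stood at 61.1 and 32.3 CPM at ZT2, 23.3 and 36.1 CPM at ZT6, 32.5 and 27.0 CPM at ZT10, 79.8 and 63.3 CPM at ZT14, 59.7 and 62.5 CPM at ZT18 and 34.3 and 42.2 CPM at ZT22. The means peaked 56.2-fold above the trough in HepWT and 2.41-fold in HepKO, where ZT14 was highest and ZT6 lowest.

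The difference between genotypes for Slc34a2 therefore ran from 2.08-fold at ZT22 (1.05 ± 0.36) to 89.1-fold at ZT10 (6.48 ± 0.57), the widest swing of the 6 genes. Fitted over the day, as the mean of the 6 log2 differences, it was 3.85 ± 0.18 (log2, SE; 14.4-fold). The mean level was 5.77 ± 6.40 CPM in HepWT and 46.1 ± 18.1 CPM in HepKO (SD, n = 12), a ratio of 8.00. Change over the day passed in HepWT (edgeR adjusted p = 6.45e-06) and missed the threshold in HepKO (edgeR adjusted p = 0.0628). The interaction had an adjusted p of 0.00128 by edgeR, and 0.117 without the 5 libraries of low depth. The HepKO test of Slc34a2 was past the threshold under other settings, among them limma-voom (adjusted p = 0.00910).

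**Figure D2:**
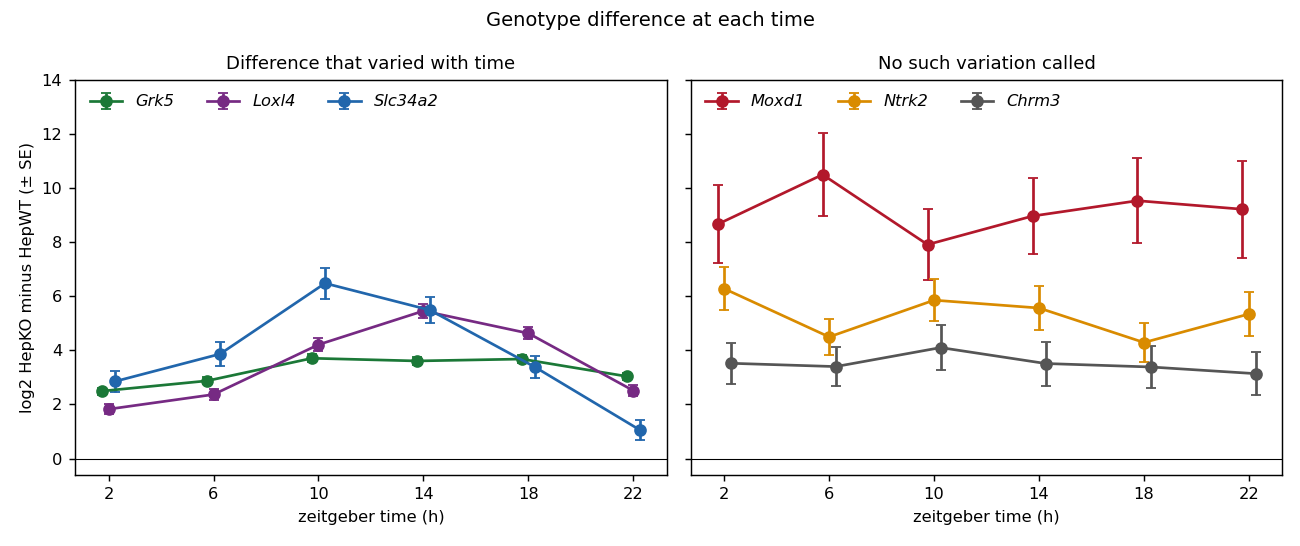
Fitted difference HepKO minus HepWT (log2, error bars SE) at each zeitgeber time (h), with the 3 genes whose difference varied with time on the left and the other 3 on the right. Slc34a2 runs from 1.05 at ZT22 to 6.48 at ZT10 and Loxl4 from 1.82 at ZT2 to 5.46 at ZT14, while the error bars of Moxd1, Ntrk2 and Chrm3 are wide.

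A 24 h cosine fitted within each genotype gave the size and timing of the waves (amplitude is the log2 distance from mean to peak). The amplitude of Slc34a2 was 2.36 ± 0.23 (SE) in HepWT, with a peak at ZT22.2 ± 0.37 h, and 0.52 ± 0.18 in HepKO. Loxl4 had an amplitude of 1.90 ± 0.11 in HepWT and 0.57 ± 0.09 in HepKO, and its fitted peak was at ZT1.16 ± 0.21 h in HepWT and ZT20.2 ± 0.58 h in HepKO. For Grk5 the amplitude was 1.11 ± 0.08 in HepWT and 0.56 ± 0.07 in HepKO, with peaks at ZT1.02 ± 0.27 h and ZT23.5 ± 0.48 h. The HepKO amplitudes of these 3 genes thus lay close together, at 0.52 to 0.57.

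A 24 h wave was called in HepWT for 3 of the 6 genes against 30.3% of all tested genes, with edgeR adjusted p of 6.80e-09 for Grk5, 2.34e-10 for Loxl4 and 5.82e-07 for Slc34a2. In HepKO 14.3% of tested genes had a called wave, and among the 6 these were Grk5 (adjusted p = 0.000179) and Loxl4 (adjusted p = 0.000756, and 0.163 without the 5 libraries of low depth). The waves differed between genotypes in 1.5% of tested genes. Here they differed for Grk5 (adjusted p = 0.00421), Loxl4 (1.18e-07) and Slc34a2 (0.000422) by edgeR. Without the libraries of low depth the difference of Grk5 had an adjusted p of 0.0963.

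**Figure D3:**
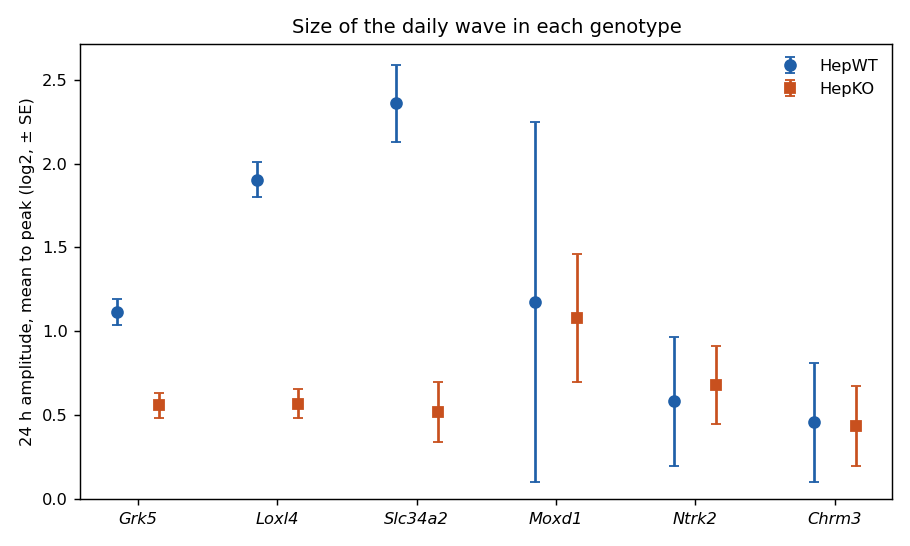
Amplitude of the fitted 24 h wave (log2, mean to peak; error bars SE) for each gene in HepWT (blue circles) and HepKO (orange squares). Loxl4 and Slc34a2 have HepWT amplitudes of 1.90 and 2.36 against 0.57 and 0.52 in HepKO, and the amplitudes of Moxd1 have the widest error bars.

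Moxd1 was near absent from HepWT. Its 12 libraries held 87 counts in all and 2 of them held 0. The values were 0.491 and 0 CPM at ZT2, 0.322 and 0.0381 CPM at ZT6, 0.797 and 0.366 CPM at ZT10, 0.783 and 0.0375 CPM at ZT14, 0.230 and 0.0346 CPM at ZT18 and 0.118 and 0 CPM at ZT22. In HepKO the same gene reached 128 and 75.7 CPM at ZT2, 174 and 373 CPM at ZT6, 139 and 139 CPM at ZT10, 378 and 19.3 CPM at ZT14, 30.4 and 167 CPM at ZT18 and 40.3 and 37.2 CPM at ZT22. The pairs of HepKO libraries at ZT10 and ZT22 were close, and those at ZT14 were 19.6-fold apart.

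The mean of Moxd1 went from 0.268 ± 0.292 CPM in HepWT to 142 ± 122 CPM in HepKO (SD, n = 12). The fitted difference of 9.13 ± 0.61 (log2, SE) is 559-fold, the largest of the 1657 genes that reached a mean log2 CPM of 1 and were higher in HepKO at all 6 times. Its size rests on few HepWT counts. At ZT22, with 3 counts in HepWT and 1678 in HepKO, the ratio per total count was 684, with a 95% interval of 234 to 3.32e+03 that covers counting error only. At the time with most HepWT counts, ZT10 with 33, the fitted difference was 7.91 ± 1.31 (240-fold).

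Ntrk2 stood in HepWT at 0.526 and 0.319 CPM at ZT2, 2.90 and 0.763 CPM at ZT6, 0.254 and 0.865 CPM at ZT10, 0.371 and 0.526 CPM at ZT14, 0.651 and 1.07 CPM at ZT18 and 0.510 and 0.371 CPM at ZT22. In HepKO the BDNF receptor stood at 38.3 and 28.2 CPM at ZT2, 46.8 and 36.5 CPM at ZT6, 41.3 and 24.8 CPM at ZT10, 30.5 and 12.2 CPM at ZT14, 5.78 and 29.3 CPM at ZT18 and 16.6 and 19.9 CPM at ZT22. A single HepWT library, replicate 1 of ZT6, was well above the other 11. The 2 HepKO libraries of ZT18 were 5.07-fold apart, and replicate 1 of that time was the lowest HepKO library. The mean went from 0.760 ± 0.714 to 27.5 ± 12.3 CPM (SD, n = 12), a difference of 5.30 ± 0.31 (log2, SE; 39.5-fold). Differences at single times ran from 4.29 ± 0.73 at ZT18 to 6.28 ± 0.80 at ZT2.

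Chrm3 was the least abundant of the 6 in HepKO. It stood in HepWT at 1.16 and 0.248 CPM at ZT2, 1.36 and 0.648 CPM at ZT6, 0.652 and 0.0665 CPM at ZT10, 0.70 and 0.263 CPM at ZT14, 0.958 and 0.208 CPM at ZT18 and 0.980 and 0.124 CPM at ZT22. The muscarinic receptor stood in HepKO at 8.49 and 7.79 CPM at ZT2, 9.72 and 11.8 CPM at ZT6, 5.68 and 6.54 CPM at ZT10, 8.29 and 2.41 CPM at ZT14, 5.29 and 6.79 CPM at ZT18 and 5.85 and 3.92 CPM at ZT22. The mean went from 0.614 ± 0.434 to 6.88 ± 2.55 CPM (SD, n = 12), a difference of 3.51 ± 0.32 (log2, SE; 11.4-fold) over the day. At single times the difference stayed between 3.14 ± 0.80 (ZT22) and 4.10 ± 0.84 (ZT10).

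No change over the day was called for these 3 genes, whose libraries of 1 time lay far apart at some times and close at others. The edgeR adjusted p of change over the day was 0.952, 0.342 and 0.797 in HepWT for Moxd1, Ntrk2 and Chrm3, and 0.275, 0.373 and 0.720 in HepKO. The interaction had adjusted p of 0.993, 0.881 and 0.996 in the same order. Fitted HepKO amplitudes were 1.08 ± 0.38 for Moxd1, 0.68 ± 0.23 for Ntrk2 and 0.44 ± 0.24 for Chrm3, and none of these waves was called. Without replicate 1 of HepKO ZT14, change over the day of Moxd1 in HepKO had an adjusted p of 0.0163, and 0.0233 without replicate 2 of that time. That of Ntrk2 was 0.0398 without replicate 2 of HepKO ZT18.

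The 2 HepKO libraries of a time lay close together for Grk5 and far apart for Moxd1. The SD between them, pooled over the 6 times, was 0.09 (log2) for Grk5, 0.27 for Loxl4, 0.35 for Slc34a2, 0.55 for Chrm3, 0.82 for Ntrk2 and 1.48 for Moxd1, against a median of 0.21 over all tested genes. Moxd1 was above 99.8% of tested genes in this spread and Grk5 above 15.7%. Among the 1542 genes within 2-fold of its HepKO level, 99.9% varied less than Moxd1. Of genes near its own level, 99.5% varied less than Ntrk2, 98.4% less than Chrm3, 97.5% less than Slc34a2, 95% less than Loxl4 and 48.9% less than Grk5. Set against genes of their own level, 5 of the 6 were thus among the more variable by this pooled SD, and Grk5 was near the middle. For Chrm3 and Loxl4 the SD came largely from 1 pair that holds a library of low depth. The Chrm3 pair of ZT14 was 3.44-fold apart, and its other pairs at most 1.49-fold. The Loxl4 pair of ZT10 was 1.796-fold apart, and its other pairs were closer. More than 1 pair was wide for Moxd1 (ZT14 and ZT18), Ntrk2 (ZT18 and ZT14) and Slc34a2 (ZT2 and ZT6).

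In the HepKO libraries the level of Moxd1 was correlated with those of Chrm3 and Ntrk2. Over the 12 libraries Pearson's r of log2 CPM was 0.84 for Moxd1 and Chrm3 (permutation p = 0.00036, adjusted p = 0.0054 over the 15 pairs) and Spearman's rho was 0.79 (permutation p = 0.00335, adjusted p = 0.0304). For Moxd1 and Ntrk2 r was 0.78 (permutation p = 0.00178, adjusted p = 0.0133) and rho was 0.78 (permutation p = 0.00406, adjusted p = 0.0304). For Ntrk2 and Chrm3 r was 0.63 (permutation p = 0.0315, adjusted p = 0.158) and rho 0.73 (permutation p = 0.00899, adjusted p = 0.0449). Without the 2 libraries farthest from the median of the first gene, r was 0.76, 0.69 and 0.64 in that order of pairs. These pairs were looked at after the values were seen, and libraries of 1 time share that time, which the permutations do not take into account. From replicate 1 to replicate 2 of a time, Moxd1 and Chrm3 moved the same way at 5 of 6 times, Moxd1 and Ntrk2 at 4 and Ntrk2 and Chrm3 at 3.

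Within replicate 1 (6 libraries) r was 0.73 for Moxd1 and Chrm3, 0.80 for Moxd1 and Ntrk2 and 0.69 for Ntrk2 and Chrm3, and within replicate 2 it was 0.94, 0.93 and 0.98. Over the 7 HepKO libraries outside those of low depth r was 0.69, 0.78 and 0.69, and none was past the threshold by an exact permutation test (adjusted p = 0.217 for all 3). Grk5 and Loxl4 had r = 0.60 (permutation p = 0.0437, adjusted p = 0.164) and rho = 0.66 (permutation p = 0.0224, adjusted p = 0.0841). Moxd1 and Grk5 had r = -0.26 (permutation p = 0.402, adjusted p = 0.549) and rho = -0.38 (permutation p = 0.218, adjusted p = 0.478). None of the 12 pairs other than those of Moxd1, Ntrk2 and Chrm3 passed the adjusted threshold by either measure.

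**Figure D4:**
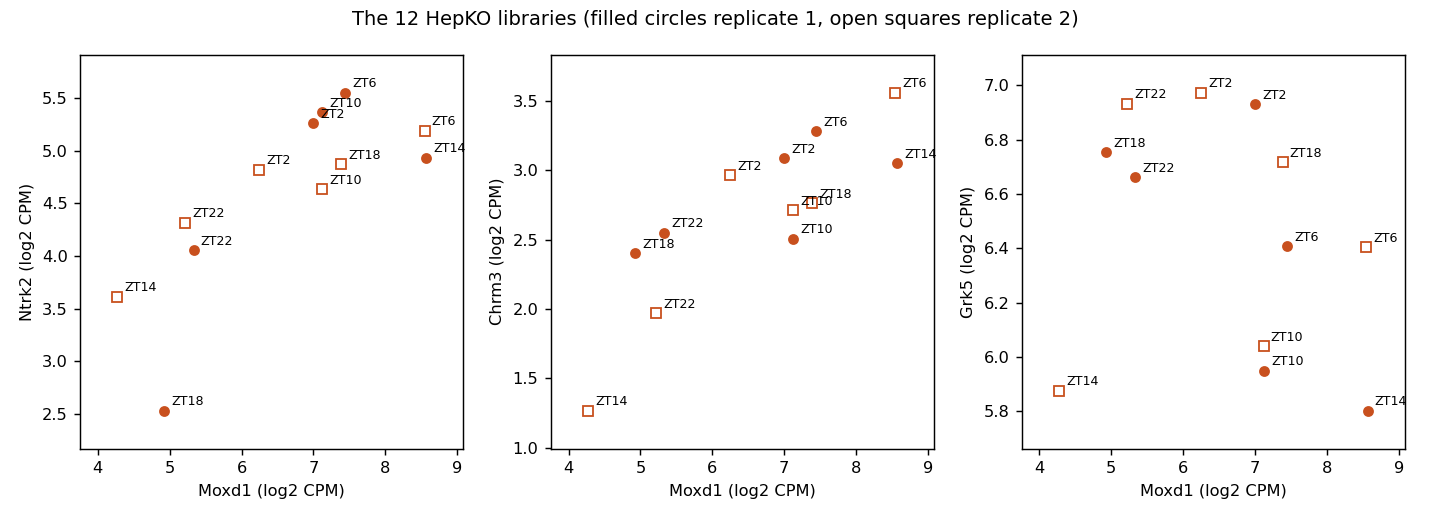
Levels of Ntrk2, Chrm3 and Grk5 (log2 CPM) against that of Moxd1 (log2 CPM) in the 12 HepKO libraries, each labelled by time, with replicate 1 as filled circles and replicate 2 as open squares. Ntrk2 and Chrm3 rise with Moxd1 (r = 0.78 and 0.84), and Grk5 shows no such rise (r = -0.26).

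In HepWT replicate 1 was above replicate 2 at 6 of 6 times for Chrm3 and Moxd1, a comparison made after the values were seen. How many of all tested genes lay on one side at 6 of 6 times was not counted. Same-numbered HepWT libraries deviated together across genes (median correlation between times 0.169), so 6 of 6 is no result by itself. Replicate 2 minus replicate 1 was -1.99 ± 0.31 (log2, SE) for Chrm3 (edgeR adjusted p = 0.0310). For Moxd1 it was -2.63 ± 0.56 and was not called (edgeR adjusted p = 0.0850). Over all tested genes 0.469% (81 genes) were called in this comparison, 34 of them (0.197%) lower in replicate 2. The call of Chrm3 was lost when any of 10 of the 12 HepWT libraries was left out (edgeR adjusted p 0.0605 to 0.118). It was kept without either library of ZT6 (edgeR adjusted p = 0.0250 and 0.0241). In HepKO the corresponding values were -0.22 ± 0.23 for Chrm3 and -0.09 ± 0.68 for Moxd1, neither of them called.

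Set against HepWT replicate 1 alone, the day difference was 8.31 (log2) for Moxd1 and 2.83 for Chrm3. Against HepWT replicate 2 alone it was 11.95 and 4.98. The other 4 genes moved by less than 1 replicate SD from their value over both, and all 6 stayed higher in HepKO. What sets the replicate numbers apart in HepWT was not tested.

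The genes most alike in level over all 24 libraries were found by Pearson's r of log2 CPM among the 12858 genes whose mean log2 CPM was 0 or more. Since all 6 genes differ strongly between genotypes, that difference is part of each r, which is given as a description. Loxl4 was among the 3 genes most like Grk5 (r = 0.97), together with Nckap5 (0.96). Slc34a2 was most like Rfxank (0.94), Lgalsl (0.93) and Cdkn1a (0.93), the last a cyclin-dependent kinase inhibitor. Moxd1 was most like Atp11a (0.95), Aadat (0.95) and Ntrk2 (0.95). Ntrk2 came next to Moxd1, the glutathione transferase gene Gstm6 (0.94) and the cytochrome P450 gene Cyp2c55 (0.94). Chrm3 came next to Atp11a (0.95), Adam11 (0.94) and Moxd1 (0.94).

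Within the 12 HepKO libraries alone the neighbours were others. Dapk1 was near Grk5 (r = 0.94), and Exosc9, Prpsap2 and Pde4b were near Loxl4 (0.94, 0.94 and 0.92). Acnat2, Bub3 and Traf3 were near Slc34a2 (0.93, 0.92 and 0.91). Moxd1 came closest to the major urinary protein gene Mup12 (0.94), with Tifa (0.92) and Spint2 (0.92). Ntrk2 came closest to Haus1 (0.92), F3 (0.89) and Cops7b (0.88), and Chrm3 was near Ptpn3 (0.91) and Grm8 (0.90).

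Relatives and partners of the 6 genes were taken from lists by family and pathway. In their tests, a gene counts as higher or lower in HepKO at an edgeR adjusted p below 0.05 for the difference over the day, as 26.5% of all tested genes did (13.2% higher), and the median difference of all tested genes was -0.01 (log2). Among the other G protein-coupled receptor kinases and arrestins, 0 of 6 were higher and 2 were lower, with a median of -0.06. Arrb2, an arrestin that binds phosphorylated receptors, was at 12.6 ± 1.06 CPM in HepWT and 10.5 ± 1.09 CPM in HepKO (log2 -0.26 ± 0.05, edgeR adjusted p = 0.000919). Grk3 was at 9.43 ± 5.36 and 5.97 ± 2.16 CPM (log2 -0.60 ± 0.20, edgeR adjusted p = 0.0377), a call that was lost against HepWT replicate 1 alone (log2 -0.13) and without the libraries of low depth (edgeR adjusted p = 0.128).

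Among 24 other genes of Gq-coupled signalling, 5 were higher and 5 lower, with a median of -0.05. Rgs16, which speeds the shut-off of G protein signals, went from 12.3 ± 20.5 CPM in HepWT to 0.0584 ± 0.0877 CPM in HepKO (log2 -7.28 ± 0.67, edgeR adjusted p = 9.79e-07), with 15 counts in HepKO and 6 of its libraries at 0. Higher were Gna14, a Gq family subunit (log2 1.02 ± 0.18, 2.02-fold, edgeR adjusted p = 0.000367), the vasopressin receptor gene Avpr1a (0.86 ± 0.07, 1.81-fold, edgeR adjusted p = 8.55e-08) and the protein kinase C gene Prkca (0.60 ± 0.08, 1.51-fold, edgeR adjusted p = 3.55e-05). Without the libraries of low depth 3 of the genes were lower.

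The other muscarinic receptors gave too few counts to be tested, with 75 counts for Chrm1, 50 for Chrm2 and 2 for Chrm4 over 24 libraries. Chrm3 had 198 counts in HepWT and 1849 in HepKO. Of 6 other cholinergic genes tested, Chrnb2 was higher (1.96 ± 0.463 to 2.93 ± 0.666 CPM, log2 0.55 ± 0.12, edgeR adjusted p = 0.00243) and Chrna2 lower (3.95 ± 0.951 to 2.4 ± 0.726 CPM, log2 -0.71 ± 0.11, edgeR adjusted p = 6.75e-05). Both encode subunits of nicotinic receptors. The median of the 6 was 0.21.

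Of 11 other genes of neurotrophin signalling, 0 were higher and 3 lower, with a median of -0.04. Bdnf, the ligand of TrkB, was at 2.32 ± 1.16 and 1.30 ± 0.561 CPM (log2 -0.78 ± 0.23, edgeR adjusted p = 0.0195), a call lost against HepWT replicate 2 alone (log2 -0.33) and without HepWT ZT14 replicate 1. The adaptor gene Gab1 was lower by a smaller step (log2 -0.28 ± 0.05, edgeR adjusted p = 0.00063).

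Lysyl oxidases and collagen genes were more often lower than higher in HepKO. Of 17 besides Loxl4, 9 were lower and 1 higher, with a median of -0.31. Lox (log2 -0.78 ± 0.26, edgeR adjusted p = 0.0376) and Loxl2 (-0.69 ± 0.18, edgeR adjusted p = 0.00683) were lower, while Loxl1 (-0.37 ± 0.16) and Loxl3 (0.10 ± 0.12) were not called. Among their substrates, Col3a1 went from 101 ± 46.2 to 46.7 ± 14.1 CPM (log2 -1.14 ± 0.23, edgeR adjusted p = 0.00136) and Col1a1 from 14.9 ± 7.88 to 6.78 ± 2.56 CPM (log2 -1.18 ± 0.25, edgeR adjusted p = 0.00203). Col1a2 (log2 -0.80 ± 0.17, edgeR adjusted p = 0.00217) and Eln (-1.25 ± 0.30, edgeR adjusted p = 0.00487) followed. In HepWT these collagens were higher in replicate 2, with a mean of 141 CPM for Col3a1 against 62.0 CPM in replicate 1. Against HepWT replicate 1 alone 4 of the 17 were lower, and 3 were without the libraries of low depth, and the calls of Eln (both settings) and Col1a1 (the first) were lost. Of 10 markers of stellate cells and fibroblasts, which produce much of the liver's collagen, 3 were lower and 1 higher. Col1a1 and Col3a1 are among the lower markers, so this count in part repeats the collagens given above. The summed level of the markers, with these collagens included, was 433 to 616 CPM in HepWT and 419 to 536 CPM in HepKO. Lox, Loxl1, Loxl2 and Loxl3 were named after their values were seen.

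Phosphate transport genes moved in both directions, with 3 higher and 3 lower of 9 besides Slc34a2 and a median of -0.0042. Slc17a2 fell from 251 ± 28.9 to 140 ± 12.9 CPM (log2 -0.84 ± 0.05, edgeR adjusted p = 1.84e-09). Slc17a4 (log2 0.61 ± 0.10, edgeR adjusted p = 0.000211) and Slc17a1 (0.48 ± 0.10, edgeR adjusted p = 0.0019) rose. Slc9a3r1, a scaffold that anchors transporters at the cell surface, fell from 154 ± 22.7 to 112 ± 7.54 CPM (log2 -0.45 ± 0.04, edgeR adjusted p = 1.62e-07). The relatives Slc34a1 and Slc34a3 had 65 and 2 counts over 24 libraries and were not tested. Slc34a2 is an epithelial gene, so bile duct markers are given beside it: 2 of 7 tested were higher in HepKO, Sox9 (2.30-fold) and Spp1 (2.08-fold), while Krt7, Krt19 and Epcam were not called at 1.23-, 1.04- and 1.01-fold. The summed level of these markers was 33.4 to 66.4 CPM in HepWT and 52.6 to 165 CPM in HepKO, and their part in the Slc34a2 level was not tested.

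Copper enzymes and copper handling genes, the group that Moxd1 belongs to by its family, held 1 higher and 5 lower of 15 others, with a median of -0.06. Cp, the copper carrier ceruloplasmin, rose 1.43-fold (log2 0.52 ± 0.06, edgeR adjusted p = 7.33e-06), and the metalloreductase gene Steap2 fell from 11.5 ± 2.16 to 3.69 ± 0.702 CPM (log2 -1.65 ± 0.10, edgeR adjusted p = 2.66e-09). The metallothioneins Mt2 (log2 -2.46 ± 0.56, edgeR adjusted p = 0.00334) and Mt1 (-1.58 ± 0.38, edgeR adjusted p = 0.00479) were lower too, calls that limma-voom did not give (adjusted p = 0.147 and 0.0745). That of Mt1 was also lost without the libraries of low depth (edgeR adjusted p = 0.0525).

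Of the 8 lists, clock transcription factors had the most calls, 8 higher and 7 lower of 19, with a median of 0.11. Npas2, the partner of BMAL1 that can stand in for CLOCK, went from 2.95 ± 3.50 to 20.4 ± 4.31 CPM (log2 4.30 ± 0.13, 19.8-fold, edgeR adjusted p = 2.22e-13). The repressors Bhlhe41 (log2 -2.98 ± 0.28, edgeR adjusted p = 8.01e-07), Ciart (-2.26 ± 0.32, edgeR adjusted p = 4.46e-05) and Nr1d2 (-1.74 ± 0.07, edgeR adjusted p = 1.13e-11) were lower. The interaction of genotype and time was called for Npas2 as for Grk5, Loxl4 and Slc34a2 (edgeR adjusted p = 8.73e-07).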

How the data were processed

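Liver RNA was sequenced in 24 libraries, and the authors deposited 1 table of raw counts by Ensembl gene. Library preparation, per the labels' protocols, was stranded and ribosome-depleted, with 250 ng of RNA and 12 PCR cycles. Per the submitters' processing notes, STAR 2.4.0i and mm10 were used. For the counting tool, annotation and strand setting, nothing is given in the sources used here. Names of 5 HepKO replicate 2 columns, those of low depth, carry an unexplained suffix.

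Counts were fitted with edgeR 4.0.16 (R 4.3.3): TMM scaling, filterByExpr by group (minimum count 10, total 15), quasi-likelihood F tests, two-sided, Benjamini-Hochberg adjusted p below 0.05 over 17275 genes. A model of 12 groups (12 residual degrees of freedom) gave differences and changes over time, and a 24 h cosine and sine within genotype (18 residual degrees of freedom) gave the waves. CPM are TMM-scaled. limma 3.58.1 and DESeq2 1.42.0 were alternatives, and the fits were tested on simulated data. PCR reads are not independent molecules, so counting intervals cover counting error only. Permutation tests, two-sided, used 100000 draws, or all orders with 7 libraries.

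The members and lists were chosen with earlier results of these data known. The division into 2 sets, the replicate comparison, the 15 correlations and the filter of 15 counts in total were chosen after values were seen. Named besides the 6 genes are, from each list, up to 4 others past the threshold with the largest difference, the 3 genes most like each member, predicted genes left out, and Arntl; a few genes that this rule takes are not reported here. Lox family members and bile duct markers were added for context. Replicate numbers did not pair the libraries of the 2 genotypes: deviations of same-numbered libraries correlated across genes by -0.0893 to 0.0526 between genotypes at the same time. Between times the median was 0.169 within HepWT and -0.0159 within HepKO. Upstream sequences are RefSeq's (GRCm38.p6), and all 6 genes matched by symbol.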

Additional observations from a re-analysis of the deposited data

Results flagged for a closer look

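The difference between HepKO and HepWT varied with the time of day for 10 of the 59 genes looked at. The edgeR test was that of the interaction of genotype and time, which called 193 (1.12%) of all tested genes. Most of the 59 were taken for their values in these same libraries, so the count is no result. Among the 6 members the genes called were Loxl4 (adjusted p = 5.56e-06), Slc34a2 (0.00128) and Grk5 (0.00217). Arntl, the deleted gene itself, had an adjusted p of 1.30e-07. From the pathway lists they were the clock genes Npas2 (adjusted p = 8.73e-07) and Nr1d2 (0.00294) and the vasopressin receptor gene Avpr1a (6.04e-05). Among the genes most like a member they were Lgalsl (0.000253) and Cdkn1a (0.000982), both near Slc34a2, and Dapk1 (0.0165), near Grk5, which were picked for that likeness in these same libraries. Groups of 2 libraries were too small for a check of single libraries that stand far from their group.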

How the results depend on the processing

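The day difference of the 6 genes, and of the genes named from each list by the rule above, kept its direction under every setting tried. So did the correlations among Moxd1, Ntrk2 and Chrm3 and the HepWT replicate differences of Moxd1 and Chrm3. Direction was not compared for other results. The day difference of the 6 genes moved by over 1 replicate SD only for Moxd1 and Chrm3 against HepWT replicate 2 alone (11.95 and 4.98). At a threshold of 0.01 the calls fell to 2928 genes for the genotype difference (1493 higher), 2439 and 830 for change over the day in HepWT and HepKO, 99 for the interaction, and 3064, 888 and 116 for the waves in HepWT, in HepKO and their difference. Without the 5 libraries of low depth they were 2900 (1448 higher), 135 for change over the day in HepKO (1 of the 6 genes), 47 for the interaction (1 of the 6), 166 for the wave in HepKO (1 of the 6) and 70 for the difference of waves. Fewer libraries enter that fit. Change over the day in HepWT was called for 1921 genes with its replicate 1 alone and 2425 with replicate 2 alone. limma-voom called a HepKO wave in 4 of the 6, adding Slc34a2 (adjusted p = 0.0264) and Ntrk2 (0.00806). Over all tested genes, no setting called a HepKO wave in more than 2717, against 2471 in the main fit. DESeq2 called 526 interactions. The cause of these shifts was not tested. With single libraries left out, change over the day in HepKO was called for 1242 genes (without HepKO ZT18 replicate 1) to 2106, and the difference of waves for 172 (without HepKO ZT2 replicate 1) to 309.

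Without a filter on low counts (32732 genes) change over the day was called in 6 of the 6 genes in each genotype and the interaction in 5, with 3488 genes for change over the day in HepKO and 1655 for the interaction. That fit is not usable for these genes: its prior degrees of freedom were infinite, so every gene was given the spread of the trend in place of its own, 0.523 for Moxd1 against 24.3 in the filtered fit (quasi-likelihood variance). With a filter of at least 15 counts in total (23310 genes, added after seeing this) the prior had 6.48 degrees of freedom, against 4.91, and the 6 genes kept all their calls. The wave models were not run without the filter.

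With the replicate number as a block, 4597 genes differed between genotypes and 199 had an interaction, and no call on the 6 genes changed (interaction of Loxl4 adjusted p = 1.53e-05, Slc34a2 0.0022, Grk5 0.00346). Same-numbered libraries deviated together within HepWT (correlations across genes of -0.0104 to 0.299 between times, median 0.169) but not between genotypes. DESeq2 gave no adjusted p for Moxd1 between HepWT replicates. Depth limits Moxd1 in HepWT, with 87 counts over 12 libraries, and Chrm3, with 198.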
